A study of Homo sapiens with 6 samples.

Results

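The zinc finger genes named ZNF on chromosome 19 form the largest gathering of this family in the human genome, and 144 of them were measured here. A gene was counted as a member when its Ensembl identifier mapped to a protein-coding symbol made of ZNF and a number, lay on chromosome 19 of GRCh38 and had at least 60 counts summed over the 6 libraries. The table of 23227 genes held 178 such genes, of which 34 were below 60 counts and 144 were members. Just inside the limit were ZNF304 with 60 counts, ZNF100 with 66 and ZNF541 with 68, and just outside it were ZNF772 and ZNF573 with 50 each and ZNF610 with 35. The same rule gave 199 ZNF genes on the other chromosomes, which served as the comparison. The set was chosen by the fold changes of its members in this same comparison, so the counts of called members below are a description and support nothing by themselves.

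RNA sequencing was done on MV4-11, an established human acute myeloid leukaemia line, with 3 control libraries and 3 libraries with a knockdown of ENO1, which encodes the glycolytic enzyme alpha-enolase. The labels give the genotype of all 6 as WT; the control group is labelled as having no treatment, and the knockdown columns of the count table all carry the name of a single hairpin. It is not stated whether a control hairpin was used in the controls. The labels do not tell whether libraries of a group are separate cultures. The p-values below therefore rest on the variation among these libraries, which may be technical.

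C2H2 zinc finger proteins bind DNA through tandem fingers, each a short loop in which a pair of cysteines and a pair of histidines hold a zinc ion. In many of the genes on chromosome 19 the fingers follow a KRAB domain, which recruits the corepressor TRIM28 and, through it, the histone H3K9 methyltransferase SETDB1 and HP1 proteins. These proteins are best known for silencing retroelements, and their genes lie in clusters that arose by tandem duplication and are themselves marked by H3K9 trimethylation at their finger exons.

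Coding sequence of both features is shown because the members are divided by them below. The first set is the KRAB motif in 4 members, with its codons in capitals. Either of a pair of overlapping patterns near the start of the KRAB domain counted as the motif: ZNF461 matched the longer of them, 30 bases that begin further into the domain, and the other members shown matched the shorter, 24 bases. All coordinates are GRCh38, and the coding bases are those of GENCODE release 29, read 5′ to 3′ on the strand of the gene. The first lies at chr19:36658363-36658422 on the minus strand, and the others begin on the plus strand at chr19:9157268-9157315, chr19:58185712-58185759 and chr19:58409962-58410015.
ZNF461: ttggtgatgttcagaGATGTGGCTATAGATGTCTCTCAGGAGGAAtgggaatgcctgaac
ZNF317: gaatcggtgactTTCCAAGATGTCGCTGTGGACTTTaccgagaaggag
ZNF274: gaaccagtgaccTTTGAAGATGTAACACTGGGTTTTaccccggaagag
ZNF584: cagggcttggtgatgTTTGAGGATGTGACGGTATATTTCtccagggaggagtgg

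The second set is a finger with the linker that joins it to the next finger, with the codons of the zinc-holding cysteines and histidines in capitals. The stretch of ZNF461 is at chr19:36639445-36639522 on the minus strand and that of ZNF146, a member made of fingers with no KRAB motif, is at chr19:36236660-36236737 on the plus strand.
ZNF461: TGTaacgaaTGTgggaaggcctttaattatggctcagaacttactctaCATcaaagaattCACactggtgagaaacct
ZNF146: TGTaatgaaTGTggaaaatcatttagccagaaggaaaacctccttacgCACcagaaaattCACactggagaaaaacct
A search of the 143 members with a reading frame found a KRAB motif in 114 and none in 29. The fingers per member ranged from 0 to 30 with a median of 11, against a median of 9 in ZNF genes elsewhere. The 144th member, ZNF8-ERVK3-1, is a read-through locus with no reading frame in the annotation, and it was not called.

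The libraries held between 20044602 and 26373960 counts. Counts of ENO1 were 84016, 79566 and 80058 in control and 2225, 2225 and 2070 in knockdown libraries, and its log2 fold change was -5.00 (SE 0.0297, adjusted p = 5.98e-37, edgeR quasi-likelihood test with Benjamini-Hochberg adjustment). Of 12 listed myelomonocytic leukaemia markers, 11 reached 10 CPM (counts scaled to the library size), and their summed level was 2056 to 2081 CPM in control and 2067 to 2105 CPM in knockdown libraries. The T cell genes CD3E and CD2 together stayed at or below 0.279 CPM, the fibroblast genes COL1A1 and COL1A2 at or below 0.541 CPM and the megakaryocyte gene ITGA2B at or below 1.85 CPM. The 4 B cell genes summed to 3.45 to 4.67 CPM in control and 6.17 to 7.02 CPM in knockdown libraries, and the 3 epithelial genes to 18.1 to 20 and 44.9 to 47.8 CPM. The mitochondrially encoded share of counts was 6.69% to 6.88% in control and 9.27% to 9.69% in knockdown libraries. These shifts moved with the groups, and their part in the results on ZNF genes was not tested. Control library 2 and knockdown library 3 stood somewhat apart, in that their chi-square against libraries of their own group, divided by its degrees of freedom, was 2.84 to 4.2, where the remaining pairs gave 2.10 and 2.29.

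The members were mostly low in level, and most were higher in the ENO1 knockdown. In these bulk libraries a change in RNA per cell cannot be told apart from a change in the cells that carry it. Their mean levels ran from 0.456 to 205 CPM with a median of 8.13, and 12 were below 1 CPM. All 144 were tested. At an adjusted p below 0.05 in edgeR's quasi-likelihood test, 94 members (65.3%) rose, where 29.4% of all tested genes did, and 9 members (6.25%) fell, where 30.5% of all tested genes did. The other 41 were not called, so that 103 members were called in either direction, where 59.9% of all tested genes were. The median log2 fold change of the members was 0.54, with a middle range of 0.12 to 0.78, against 0.004 over all 14635 tested genes. In 98 members all knockdown libraries were above all control libraries (31.8% of all tested genes), in 10 all were below (32.5% of all tested genes), and in 36 the groups overlapped. A rise of at least 2-fold was called in 14 members (6.51% of all tested genes) and a fall of that size in 0 (3.56% of all tested genes). The share that fell varied with level: below 2 CPM it was 8.55% of all tested genes and 0% of members. From 2 to 5 CPM it was 16.5% and 6.9%, from 5 to 20 CPM 26.1% and 1.96%, and from 20 CPM 43.7% and 15.8%. Of the 14 rises of 2-fold, 8 were below 2 CPM, where 478 of 3031 tested genes had one. Another 4 were from 2 to 5 CPM (152 of 1439 tested genes) and 2 from 5 to 20 CPM (164 of 2735).

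The other protein-coding genes of chromosome 19 did not follow that pattern. Of 775 tested, 164 (21.2%) rose and 335 (43.2%) fell, and the median log2 fold change was -0.14. Their median level was 37.7 CPM. Of all tested genes at 20 CPM or more, 30.6% rose and 43.7% fell, with a median of -0.06. The ZNF genes of other chromosomes lay between: of 198 tested, 90 (45.5%) rose and 32 (16.2%) fell, with a median of 0.16, which was 0.38 below that of the members. The summed level of the members was 1982 ± 2.11 CPM (SD, n = 3) in control and 2435 ± 41.1 CPM (SD, n = 3) in knockdown libraries, a ratio of 1.23. That of the ZNF genes elsewhere was 6241 ± 51.1 CPM (SD, n = 3) and 6934 ± 56.5 CPM (SD, n = 3), a ratio of 1.11.

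Most of the rise lay in members with a KRAB motif. Of the 114, 85 rose and 3 fell, and their median log2 fold change was 0.62. Their summed level was 1226, 1219 and 1211 CPM in the control libraries and 1630, 1657 and 1729 CPM in the knockdown libraries, a ratio of 1.37. The groups did not overlap, and knockdown library 3 was the highest. Of the 29 members without the motif, 9 (31.0%) rose and 6 (20.7%) fell, with a median of 0.06, beside 29.4% and 30.5% of all tested genes. Their summed level was 755, 765 and 768 CPM in control and 773, 762 and 752 CPM in knockdown libraries, so that the groups overlapped. The 9 that rose, named here after their values were seen, were ZNF134, ZNF837, ZNF260, ZNF296, ZNF121, ZNF784, ZNF180, ZNF714 and ZNF576, with log2 fold changes from 0.85 in ZNF134 to 0.20 in ZNF576. The motif is a short residue pattern that may miss KRAB domains, so genes counted as without it may include KRAB genes. Elsewhere in the genome 40 of 73 ZNF genes with a KRAB motif rose and 4 fell, with a median of 0.33, against 50 and 28 of 125 without it, with a median of 0.11.

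**Figure D1:**
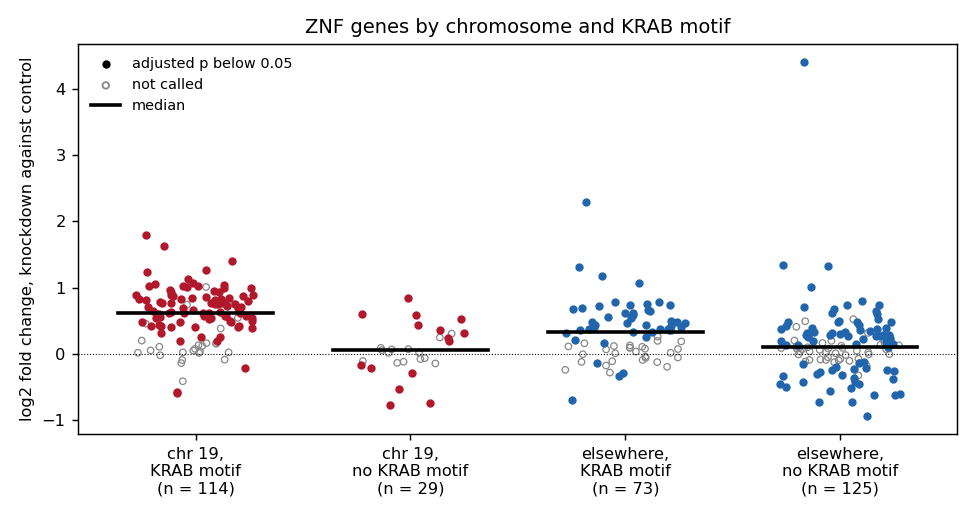
Log2 fold change of ZNF genes (vertical axis, knockdown against control) by chromosome and KRAB motif; each point is a gene, filled where the adjusted p was below 0.05, and black bars are medians. The median of the 114 members with a KRAB motif is 0.62, and that of the 29 without it is 0.06.

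The members with the highest log2 fold changes were KRAB genes of low level. ZNF461 (ENSG00000197808, chr19:36637192-36666853) was at 0.733, 0.779 and 1.11 CPM in the control libraries and 3.11, 2.13 and 2.90 CPM in the knockdown libraries. All knockdown libraries were above all control libraries, and its log2 fold change was 1.63 (SE 0.26, adjusted p = 4.83e-06, edgeR quasi-likelihood test). ZNF547 (ENSG00000152433, chr19:57363477-57379565) was at 2.01, 1.27 and 1.11 CPM in control and 3.16, 4.17 and 3.30 CPM in knockdown libraries, with no overlap and a log2 fold change of 1.27 (SE 0.228, adjusted p = 2.55e-05, edgeR). ZNF846 (ENSG00000196605, chr19:9751993-9793180) was at 1.04, 0.369 and 1.07 CPM against 1.21, 2.36 and 2.31 CPM. Its log2 fold change was 1.24 (SE 0.339, adjusted p = 0.00296, edgeR), control library 2 was its lowest, and without that library and knockdown library 3 the value was 0.76 with an adjusted p of 0.062 in edgeR.

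ZNF671 (ENSG00000083814, chr19:57719751-57727624), whose promoter is known to be methylated in several tumours, was at 1.12, 1.15 and 0.903 CPM in control and 2.74, 2.22 and 2.02 CPM in knockdown libraries, a log2 fold change of 1.14 (SE 0.25, adjusted p = 0.000311, edgeR). ZNF699 (chr19:9294275-9309838) went from 1.58 ± 0.0609 CPM to 3.32 ± 0.302 CPM (SD, n = 3 each) and ZNF549 (chr19:57527325-57557542) from 2.42 ± 0.244 CPM to 5.03 ± 0.344 CPM (SD, n = 3 each). Both groups were tight in these genes and none of their libraries overlapped. ZNF404 rose by 1.03 on the log2 scale, but 16.2% of its 50-base stretches also occur in transcripts of other genes, so its count is uncertain. ZNF738 (chr19:21358930-21379302), in which no finger pattern was found, was at 4.74, 4.92 and 4.68 CPM in control and 7.95, 11.0 and 10.3 CPM in knockdown libraries, a log2 fold change of 1.03 (SE 0.129, adjusted p = 1.12e-07, edgeR).

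A pair of members had larger fold changes than most of these but did not meet the rule for naming, and they are given after their values were seen. ZNF304, the member with the fewest counts, had 6, 3 and 6 counts in control and 11, 13 and 21 in knockdown libraries. ZNF816 had 19, 11 and 25 counts against 49, 22 and 54, so that the groups overlapped. Among members with more reads, ZNF529 stood at 13.3, 13.1 and 13.3 CPM in control and 26, 25.6 and 27.4 CPM in knockdown libraries, a log2 fold change of 0.99 (SE 0.0743, adjusted p = 4.94e-12, edgeR).

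The fall was led by members with GC-rich transcripts. ZNF787 (ENSG00000142409, chr19:56087366-56121280), which has 7 fingers and no KRAB motif, was at 69.3, 74.1 and 71.2 CPM in control and 44.1, 42.1 and 42.3 CPM in knockdown libraries. The groups were far apart, with a log2 fold change of -0.74 (SE 0.0488, adjusted p = 3.6e-13, edgeR). ZNF584 (ENSG00000171574, chr19:58401504-58418327), which does have the motif shown above, was at 29, 28.7 and 30.6 CPM against 19.1, 19.5 and 20.5 CPM, a log2 fold change of -0.58 (SE 0.0672, adjusted p = 2.59e-08, edgeR). ZNF444 fell by 0.21 and ZNF627, the third KRAB member that fell beside ZNF584 and ZNF324B, also by 0.21 on the log2 scale. Both of these calls depend on single libraries: the adjusted p of ZNF444 was 0.114 without control library 3, and that of ZNF627 was 0.0841 without control library 1 and 0.0703 without knockdown library 2, all in edgeR. ZNF444 also lost its call with a correction for GC content and length (adjusted p = 0.349, edgeR).

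A further 4 members that fell share more than 10% of their 50-base stretches with other genes and are uncertain: ZNF358 with a log2 fold change of -0.77, ZNF324B with -0.58, ZNF653 with -0.53 and ZNF580 with -0.28. ZNF507, the remaining member that fell, was outside the rule for naming, with a log2 fold change of -0.17. Sharing was common in the family, with 31 members above 10%, of which 17 rose and 4 fell. Among the 113 members at or below 10%, 77 rose and 5 fell, with a median of 0.54.

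**Figure D2:**
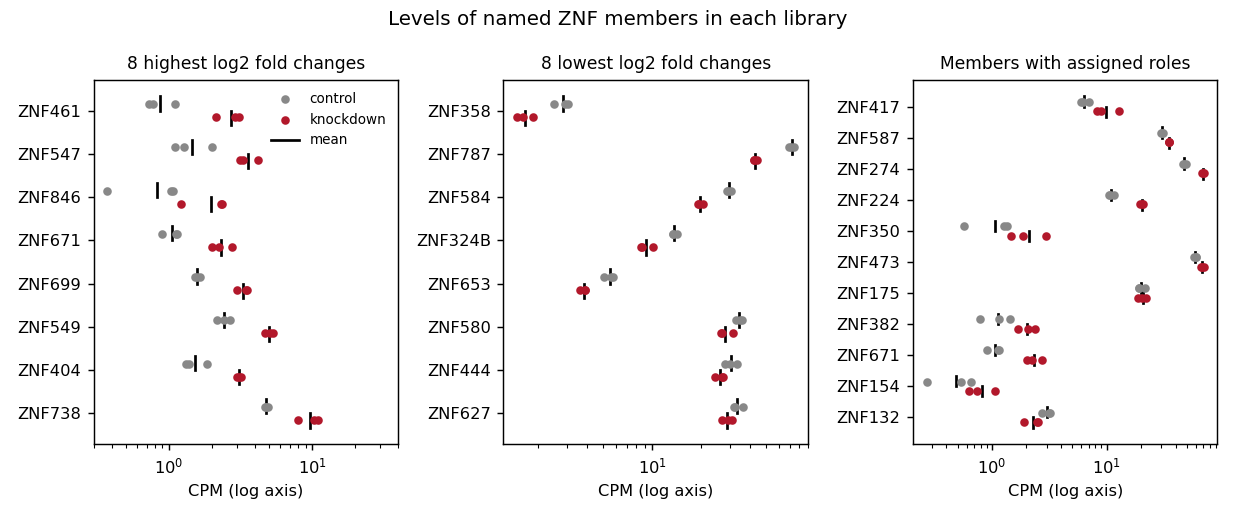
Level of named members in each library, in CPM on a log axis; grey points are the 3 control libraries, red points the 3 knockdown libraries and short bars the group means. The groups do not overlap in the left and middle panels, which the rule for naming required, while ZNF175 and ZNF154 overlap in the right panel.

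Levels of different genes were compared per kilobase of exon. By that scale ZNF146 (ENSG00000167635, chr19:36214602-36238774), the finger-only member shown above, was the most abundant member at 49.5 CPM per kilobase. It was at 202, 203 and 204 CPM in control and 204, 198 and 218 CPM in knockdown libraries, where the groups overlapped, with a log2 fold change of 0.02 (SE 0.0349, adjusted p = 0.564, edgeR). ZNF317 (ENSG00000130803, chr19:9140380-9163424), the next at 17.3 CPM per kilobase, was at 69.7, 70.9 and 74.1 CPM in control and 98.0, 108 and 106 CPM in knockdown libraries. Its log2 fold change was 0.54 (SE 0.0445, adjusted p = 3.76e-11, edgeR), with no overlap. ZNF787 followed at 15.6, ZNF524 at 14.2 and ZNF296 at 13.2 CPM per kilobase. ZNF524 was not called, at 20.3 ± 0.684 CPM in control and 18.4 ± 1.33 CPM in knockdown libraries (SD, n = 3 each). ZNF296 rose from 18.8 ± 1.59 to 27.1 ± 1.48 CPM (SD, n = 3 each), so that the most abundant members per length included both a fall and rises.

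Of 19 genes listed for a known role, 11 were members, and 8 of these rose and 0 fell, beside 65.3% and 6.25% of all members and 29.4% and 30.5% of all tested genes. ZNF274, which recruits SETDB1 to the finger exons of other ZNF genes, was at 49.4, 47.5 and 46.5 CPM in control and 68.3, 70.1 and 70.4 CPM in knockdown libraries. The groups were clearly apart, with a log2 fold change of 0.54 (SE 0.0473, adjusted p = 1.24e-10, edgeR). ZNF224, a repressor of the glycolytic gene ALDOA and a partner of WT1, was at 10.5, 11.6 and 10.8 CPM in control and 20.5, 19.6 and 20.8 CPM in knockdown libraries, a log2 fold change of 0.88 (SE 0.0834, adjusted p = 5.51e-10, edgeR). Of its exon bases 40.5% lie under an exon of the opposite strand, and the strand setting of the counting is not given, so reads of the overlapping gene cannot be told apart. The same holds for 17 members with over 10% of such overlap, of which 6 rose and ZNF358 fell; their median log2 fold change was 0.11. ZNF473, which takes part in the 3′ end processing of histone mRNA, was at 59.6 ± 1.6 CPM in control and 68.4 ± 1.98 CPM in knockdown libraries (SD, n = 3 each), a log2 fold change of 0.20 with no overlap.

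ZNF417 and ZNF587, near-identical repressors of retroviral elements, had log2 fold changes of 0.64 and 0.20. Both are uncertain, since 37.6% and 18.8% of their 50-base stretches are shared with other genes, and without knockdown library 3 the value of ZNF417 was 0.42. Of the exon bases of ZNF587, 33.3% lie under an exon of the opposite strand, and it lost its call with a correction for GC content and length (log2 fold change 0.08, adjusted p = 0.184, edgeR). ZNF350, a partner of BRCA1, was at 1.35, 1.27 and 0.574 CPM in control and 1.86, 1.45 and 2.95 CPM in knockdown libraries. Its adjusted p in edgeR was 0.0104, and it was 0.101 without knockdown library 3 and 0.0738 without control library 3. ZNF382, a gene known to be methylated in tumours, had a log2 fold change of 0.84, and its adjusted p in edgeR went from 0.00866 to 0.0568 without control library 3.

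The other 3 members with a listed role were not called. ZNF175, which acts on the HIV promoter, was at 20.1 ± 1.36 CPM in control and 20.6 ± 1.70 CPM in knockdown libraries (SD, n = 3 each). Of the genes known for methylation in tumours, ZNF154 had a log2 fold change of 0.75 (SE 0.406, adjusted p = 0.116, edgeR), which was 0.44 without control library 1 and 0.50 without knockdown library 1. ZNF132 had one of -0.41 (SE 0.194, adjusted p = 0.0725, edgeR). All knockdown libraries were below all control libraries in ZNF132, and with a correction for GC content and length its adjusted p in edgeR was 0.0317. ZNF91, the repressor of SVA elements, had 2 counts in all and was no member. ZNF93, ZNF649, ZNF765, ZNF331, ZNF264, ZNF160 and ZNF677 had no row under these symbols in the table used here, so they were not analysed.

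Along the chromosome the 178 ZNF genes of the table, members or not, were split into runs with no more than 1 Mb between successive starts. The members lay in 16 of these runs, and 8 runs with at least 5 tested members held 130 of them. In the run at 36.2 to 37.5 Mb, 14 of 16 members rose, the median log2 fold change was 0.77, and the other two were ZNF565 (0.11) and ZNF146. In the run at 43.5 to 45.1 Mb, 17 of 20 rose with a median of 0.62, and ZNF428, ZNF230 and ZNF575 were not called. In the run at 19.7 to 21.8 Mb, 8 of 10 rose with a median of 0.76. None of the members of these 3 runs fell. Over all tested genes 29.4% rose and 30.5% fell.

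The remaining runs of the short arm held members called in both directions or few called members. At 2.8 to 2.9 Mb, 2 of 5 rose, ZNF554 (1.02) and ZNF555 (0.26). At 7.1 to 9.8 Mb, 9 of 13 rose and ZNF358 fell. At 11.5 to 12.6 Mb, ZNF443, ZNF490, ZNF791 and ZNF700 rose, while ZNF627 and ZNF653 fell, and the other 3 of 9 were not called. On the long arm 8 of 12 rose and 0 fell at 51.6 to 53.0 Mb. In the run with the most members, at 55.5 to 58.5 Mb, 25 of 45 rose and 5 fell, with a range from -0.74 in ZNF787 to 1.79 in ZNF304. Of the other protein-coding genes that lie inside these 8 runs 23 of 72 tested (31.9%) rose and 29 (40.3%) fell, with a median of -0.08. The shares over all tested genes were 29.4% and 30.5%. Their counts differed by run: 5 of 31 rose and 15 fell at 7.1 to 9.8 Mb, while 10 of 20 rose and 6 fell at 43.5 to 45.1 Mb, and 3 of 4 rose and 0 fell at 51.6 to 53.0 Mb. The 72 include ZFP14, ZSCAN5A and ZSCAN22, relatives of the members described further below. At 36.2 to 37.5 Mb the only such gene tested was ZFP14. The runs at 2.8 to 2.9 Mb and 19.7 to 21.8 Mb held 0, so their members have no neighbours to compare with. The log2 fold changes of successive members of a run had a Pearson correlation of 0.41 and a Spearman correlation of 0.34 over 128 pairs, which are across genes of the same libraries and not independent.

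**Figure D3:**
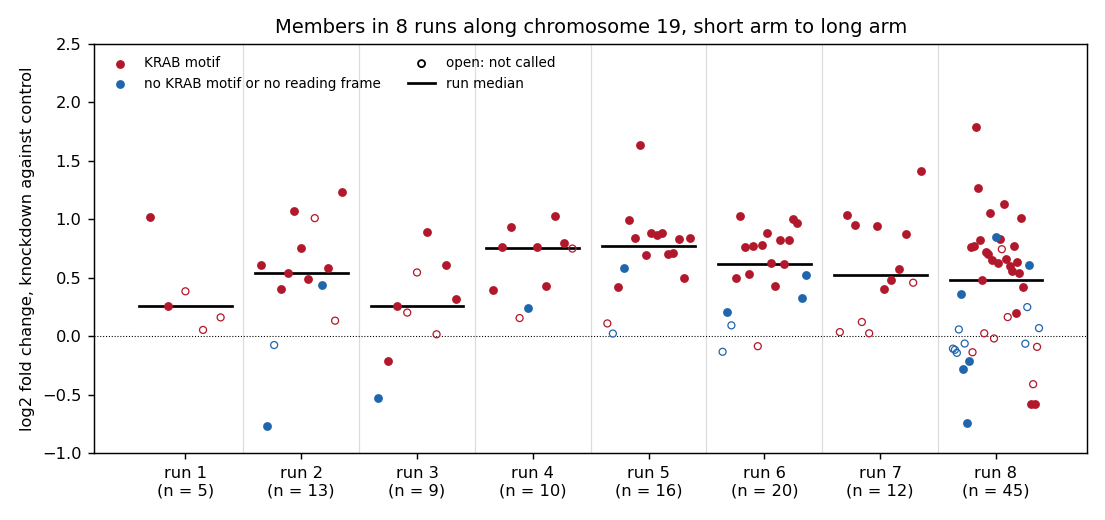
Log2 fold change (vertical axis, knockdown against control) of the 130 members in the 8 runs with at least 5 tested members, in order along chromosome 19; red is a KRAB motif, blue is none, open points were not called and bars are run medians. The members above 0 outnumber those below in each run, and the last run spans from -0.74 to 1.79.

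The calls were also counted by GC content and level, since both moved with the direction. Among members whose transcripts had a GC content below 45%, 69 of 87 rose and 2 fell (ZNF627 and ZNF507). From 45% to 55%, 22 of 33 rose and 0 fell. At 55% or more, 3 of 24 rose (ZNF837, ZNF296 and ZNF784, listed after their values were seen) and 7 fell. Over all tested genes the shares that rose in these ranges were 31.7%, 31.2% and 25.6%, and the shares that fell were 29.8%, 28.4% and 35.9%. The 7 members that fell at 55% or more were 29.2% of the members in that range. The median log2 fold change there was -0.08 over the members and -0.06 over all tested genes. The Spearman correlation of log2 fold change with GC content was -0.42 over the 144 members, -0.23 over the 198 ZNF genes elsewhere and -0.08 over the 14056 tested genes with a value.

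GC content and the KRAB motif were tied together, since 21 of the 24 members at 55% or more lacked the motif and 80 of the 87 below 45% had it. In the low range 64 of 80 with the motif and 5 of 7 without it rose. In the high range 0 of 3 with it (ZNF324 was not called, and ZNF584 and ZNF324B fell) and 3 of 21 without it rose. With the counts corrected for GC content and length, 89 members rose and 9 fell, and the median was 0.46. The Spearman correlation of log2 fold change with mean level was -0.39 over the members, -0.15 over ZNF genes elsewhere and -0.20 over all tested genes. The median log2 fold change was 0.71 in the lower 72 members by level and 0.40 in the upper 72, while 47 rose in each set. By number of fingers, 3 of 13 members with up to 5 fingers rose, 30 of 47 with 6 to 10, 39 of 54 with 11 to 15 and 22 of 29 with 16 or more. In ZNF genes elsewhere 20 of 60, 33 of 66, 23 of 50 and 14 of 22 rose in these classes, beside 29.4% of all tested genes. The Spearman correlation with finger number was 0.24 over 143 members and 0.27 over 198 ZNF genes elsewhere. Within the 114 members with a KRAB motif it was only 0.09. The Spearman correlations with GC content and mean level within these 114 were -0.23 and -0.39.

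**Figure D4:**
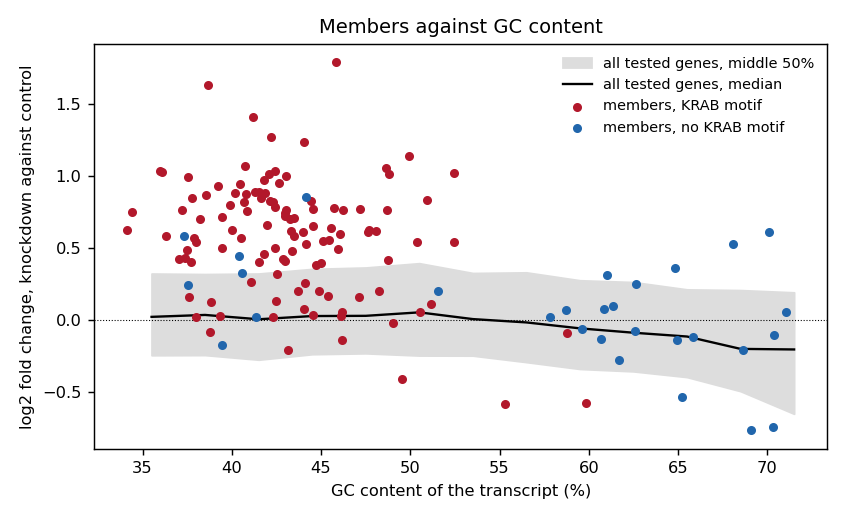
Log2 fold change of the members (vertical axis, knockdown against control) against the GC content of their transcripts in percent; red points have a KRAB motif and blue points do not, and the line and grey band give the median and the middle 50% of all tested genes. Most members below 55% lie above the line, and the members at 55% or more lie around it.

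The machinery that KRAB proteins work through held genes called in both directions. Of 32 tested corepressor and heterochromatin genes 9 (28.1%) rose and 14 (43.8%) fell, beside 29.4% and 30.5% of all tested genes, and the median log2 fold change was -0.07. All 32 had a mean level above 20 CPM. Among all tested genes at 20 CPM or more 30.6% rose and 43.7% fell, with a median of -0.06, close to the values of the list. TRIM28, the KRAB corepressor itself, which lies on chromosome 19 just beyond the last run, was at 619, 631 and 625 CPM in control and 504, 514 and 485 CPM in knockdown libraries. All knockdown libraries were below, with a log2 fold change of -0.32 (SE 0.0284, adjusted p = 1.79e-10, edgeR). SETDB1 rose from 76.3 ± 2.65 to 90.2 ± 4.52 CPM (SD, n = 3 each) and its cofactor ATF7IP had a log2 fold change of 0.59. MORC3, an ATPase of heterochromatin, had one of 0.73, while UHRF1, which brings DNMT1 to replicated DNA, had -0.57 and CHAF1A, a histone chaperone subunit, had -0.55. CBX5, which encodes HP1 alpha, was not called, at 250 ± 3.11 CPM in control and 246 ± 7.87 CPM in knockdown libraries (SD, n = 3 each), but with a correction for GC content and length its log2 fold change was -0.18 (adjusted p = 1.73e-08, edgeR). The genes of the other HP1 proteins, given after their values were seen, fell: CBX3 had a log2 fold change of -0.68 (adjusted p = 2.94e-12, edgeR), the lowest in the list, and CBX1 one of -0.61 (adjusted p = 1.55e-11, edgeR).

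The promoters of the members were searched because so many members moved together. RefSeq promoters on GRCh38.p14, from 250 bases before to 50 after the start, were found for 129 members, 149 promoters in all. The motif CCGGAAG, the core bound by ETS factors, was present on either strand in 40.3% of them, against 17.1% of the promoters of tested genes and 10.3% of all 35116 promoters. It was in 45.7% of the promoters of members that rose, 45.5% of the 11 promoters of members that fell, 28.3% of those not called and 30.8% of those of ZNF genes elsewhere. The shares beside members that rose and members that fell were close, though the latter rests on few promoters. Parts of 4 promoters are shown with matches in capitals, CCGGAAG or its reverse complement in the first 3 and ACTACAA in that of ZNF317; in ZNF787 matches on both strands overlap. They lie at chr19:58182951-58183010 on the plus, chr19:57727625-57727684 and chr19:56121431-56121490 on the minus and chr19:9140290-9140349 on the plus strand.
ZNF274: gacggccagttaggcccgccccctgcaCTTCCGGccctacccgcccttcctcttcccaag
ZNF671: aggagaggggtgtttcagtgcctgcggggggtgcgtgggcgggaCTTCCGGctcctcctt
ZNF787: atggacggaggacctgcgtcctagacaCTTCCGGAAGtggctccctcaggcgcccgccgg
ZNF317: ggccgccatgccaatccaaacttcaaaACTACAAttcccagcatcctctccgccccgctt

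The motif ACTACAA, part of the longer site bound by ZNF143, was in 9.40% of the members' promoters, 3.43% of those of tested genes and 2.77% of all. It was in 9 of 92 promoters of members that rose and 2 of 11 of members that fell. The E-box CACGTG, bound by MYC and related factors, was in 6.04% of the members' promoters, 9.41% of those of tested genes and 7.26% of all. GCGCATG, part of the site of NRF1, was in 7.38%, 6.72% and 4.43%. A pair of TTTC copies separated by any 2 bases, as in interferon response elements, was in 0 of the 149 promoters, 3.10% of those of tested genes and 3.57% of all. All were searched on both strands in the same 300 bases, and a match describes letters in the window and not binding.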

How the data were processed

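The authors deposited 1 table of raw, whole-number read counts by Ensembl gene. HISAT2 2.0.5 and hg38 are named, per the submitters' processing notes; which counter, annotation and strand setting went with them is not given in the sources used here. Columns were matched to samples by group and number. Symbols, positions, transcripts and reading frames came from GENCODE 29 (GRCh38) and the reference symbol table. All genes were tested together with edgeR 4.0.16 in R 4.3.3 (TMM, filterByExpr, robust glmQLFit and glmQLFTest, two-sided, Benjamini-Hochberg over the 14635 tested genes, threshold 0.05), and CPM used TMM-scaled sizes. Standard errors are the log2 fold change divided by the root of the F statistic. The procedure was tested on counts simulated for knockdown against control over 14635 genes, where 26 of 50 genes changed 1.2-fold, 44 of 50 changed 1.5-fold, 45 of 50 changed 2-fold and 49 of 50 changed 4-fold were recovered. Named members were the 8 highest and 8 lowest among those called, with no overlap and a mean of 1 CPM or more in the higher group, the 5 most abundant per kilobase, those with listed roles, 7 corepressor genes and ENO1.

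The members and lists were chosen with earlier results of these data known. The planned KRAB class was to use a protein table; translated GENCODE reading frames were used in its place, a choice made after seeing the data. KRAB and finger patterns are short residue patterns, not domain searches. The alternatives were RLE, upper-quartile and library-size scaling, no filter, 5 CPM in 3 libraries, DESeq2 1.42.0, limma-voom (limma 3.58.1), the replicate block, each library left out, a threshold of 0.01, at least 1.5-fold, a GC and length correction (mgcv 1.9.3), at least 300 counts, leaving out members with over 10% shared stretches and, added later, leaving out the 2 libraries that stood apart.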

Additional observations from a re-analysis of the deposited data

How the results depend on the processing

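No called result changed direction under any alternative that was run. At least 1.5-fold left 60 members higher and 2 lower, 29 and 7 ZNF genes elsewhere, 0 KRAB members lower, 2 higher and 2 lower without the motif, and 2 and 2 corepressor genes. Without members that share over 10% of their stretches, 5 members fell, 3 of them without the motif. The members' median log2 fold change was 0.46 with the GC and length correction, 0.48 at 5 CPM in 3 libraries, 0.49 at 300 counts or without the 2 libraries that stood apart, and 0.59 with library-size scaling. That of ZNF genes elsewhere was 0.12 with the GC correction, 0.13 with no filter, 0.20 with upper-quartile and 0.21 with library-size scaling. The difference of the medians was 0.30 at 5 CPM and 0.32 without the 2 libraries. The cause of these moves was not tested, except that the count limits test fewer genes. Of the 94 members that rose and the 9 that fell, 60 and 5 kept their call in all alternatives with their own fit, and 0 took the opposite call. For the 37 named genes, 567 of 580 alternatives with their own fit kept the call and 11, in 6 genes, lost it. The stricter threshold and the 1.5-fold limit were not counted among these 580. The 1.5-fold limit took the call from named genes with smaller changes, among them ZNF317, ZNF274, ZNF473, SETDB1 and TRIM28.

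The labels do not tell whether the replicate numbers pair libraries of the groups. Same-numbered libraries had correlations of 0.055, -0.027 and -0.16 in their deviations from the group means. Differently numbered libraries had -0.21 to 0.24. With 3 libraries per group these values cannot decide whether the numbers mark pairs. With the replicate number as a block 90 members rose and 9 fell. Low counts limit the members below 1 CPM.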

Other observations

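Genes of chromosome 19 with symbols of the ZFP, ZSCAN, ZKSCAN, ZIK and ZIM series were looked up as relatives of the members, and 3 of the 7 in the table were tested; C2H2 genes with other names were not searched. ZSCAN5A was at 7.79, 9.39 and 7.96 CPM in control and 15.1, 14.3 and 16 CPM in knockdown libraries, with no overlap and a log2 fold change of 0.85 (adjusted p = 2.44e-08, edgeR quasi-likelihood test with Benjamini-Hochberg adjustment). ZFP14, which lies in the run at 36.2 to 37.5 Mb, went from 1.81 ± 0.574 to 3.07 ± 0.428 CPM (SD, n = 3 each), a log2 fold change of 0.76 (adjusted p = 0.0051, edgeR). ZSCAN22 was not called, with a log2 fold change of -0.06.

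Antisense and divergent transcripts named after chromosome 19 genes of the family were taken where they had at least 60 summed counts. Of these 11, 4 (36.4%) rose and 0 fell, where 29.4% of all tested genes rose and 30.5% fell. Those that rose were ZNF529-AS1 with a log2 fold change of 1.01, ZNF567-DT with 0.86, ZNF566-AS1 with 0.79 and ZNF584-DT with 0.32. ZNF584-DT was at 9.67 ± 0.907 CPM in control and 12 ± 0.924 CPM in knockdown libraries (SD, n = 3 each, adjusted p = 0.00834, edgeR). ZNF584, which fell, spans it on the opposite strand, and 0% of the exon bases of ZNF584 lie under an exon of that strand. Reads of a gene and its antisense partner cannot be told apart where their exons overlap, since the strand setting is not given. These genes and transcripts were chosen after the data were seen.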
